A study of Solanum lycopersicum with 6 samples.

Results

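Terpenoid and sterol synthesis genes were taken from the table's gene descriptions, as those naming a terpene, terpenoid, sesquiterpene, hydroxymethylglutaryl, farnesyl, geranyl, squalene, cycloartenol or sterol compound, with brassinosteroid and oxysterol genes left out. They numbered 133 of 35768 listed genes. The selection also asked for the steroidal alkaloid words solanidine and GAME with a digit, and 0 descriptions held either. No gene was thus assigned to the alkaloid branch by name. Whether any of the sterol-forming genes below supply that branch cannot be read from their descriptions. The values came from RNA sequencing of tomato (Solanum lycopersicum) roots: 3 slszp1 mutant libraries and 3 wild type libraries, which the labels call biological replicates. All plants were 20 days old and all were given 60 µM aluminium (Al) at pH 4.7, so the control plants carried the Al treatment as well, and roots without Al were not analysed here. The labels give neither the mutant allele nor the number of independent lines. SZP1 is a zinc finger protein known as a partner of STOP1, the factor that plants need to tolerate acid soil and Al. None of the descriptions holds the name SZP1, and the level of the mutated gene could therefore not be used to check the genotype labels. The question addressed is which of these genes differed in level between the genotypes under Al.

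Plants make the shared building block isopentenyl diphosphate by a cytosolic route through mevalonate and by a plastid route named after methylerythritol phosphate (MEP). Prenyl diphosphate synthases join these units into geranyl, farnesyl and geranylgeranyl diphosphates. Farnesyl diphosphate feeds squalene, which is oxidised and cyclised to cycloartenol and on to membrane sterols, and in tomato the cholesterol made on a side path is the precursor of steroidal glycoalkaloids such as tomatine. Terpene synthases draw on the same diphosphates to make volatile and defence terpenes, many of them in tomato from genes that lie in clusters.

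The deposited values are taken as TPM, a transcript abundance scaled for gene length and library total. Absolute depth is unknown, and each library held between 17050 and 17728 genes at 1 TPM or more. Between libraries, Pearson's r of log2(TPM + 1) lay between 0.971 and 0.980 among mutant libraries, between 0.952 and 0.974 among wild type libraries and between 0.877 and 0.916 across genotypes. Of 23 genes annotated to root identity (SCARECROW, SHORT-ROOT, root hair and root cap), 11 were tested and 0 passed, and their summed level was 258 to 264 TPM in mutant and 272 to 301 TPM in wild type libraries. Genes of green tissue summed to 690 to 734 TPM in mutant and 541 to 577 TPM in wild type libraries, with 121 of 220 listed at 0 throughout, and 4 of 37 tested rose and 2 fell. A list of 56 genes described as Casparian strip membrane or CASP-like proteins was taken for the endodermis, though not each need mark it. Of these, 36 were tested, 5 rose and 6 fell, with sums of 645 to 689 TPM in mutant and 665 to 780 TPM in wild type libraries. The part of these differences in the results was not tested. In whole roots, fewer cells of a type and less RNA per cell cannot be told apart.

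Of the 133 genes, 60 reached 1 TPM in at least 3 of 6 libraries and were tested, 44 were listed at 0 in every library, and 29 were detected below that minimum. Among the 60, 14 fell in the mutant (23.3%) and 2 rose (3.3%) at an adjusted p under 0.05 by limma, with adjustment over all 17702 tested genes. Over all tested genes 19.2% changed, 10.5% lower and 8.71% higher. The fitted change, mutant minus wild type on the log2(TPM + 1) scale, was negative for 41 of the 60 genes and positive for 19. Its median over the 60 was -0.27, while over all tested genes it was -0.00048. Summed over all 133 genes, the level was 1517, 1491 and 1637 TPM in mutant replicates 1, 2 and 3, and 1874, 1643 and 1978 TPM in wild type replicates 1, 2 and 3. The lowest wild type sum lay just above the highest mutant sum, that of mutant replicate 3. That mutant sum includes 166.8 TPM from 1 untested low-quality model, Solyc10g019050.2, which was listed at 0 in every other library. All 14 genes that fell had every mutant library below every wild type library, and both that rose had every mutant library above. The calls rest on the same values, so this separation adds no support to them. Its share over all tested genes was not counted. Of these 16 calls, 5 held in every alternative fit. The other 11 were lost in at least 1 fit without a single library, and the libraries concerned are named beside each gene.

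**Figure D1:**
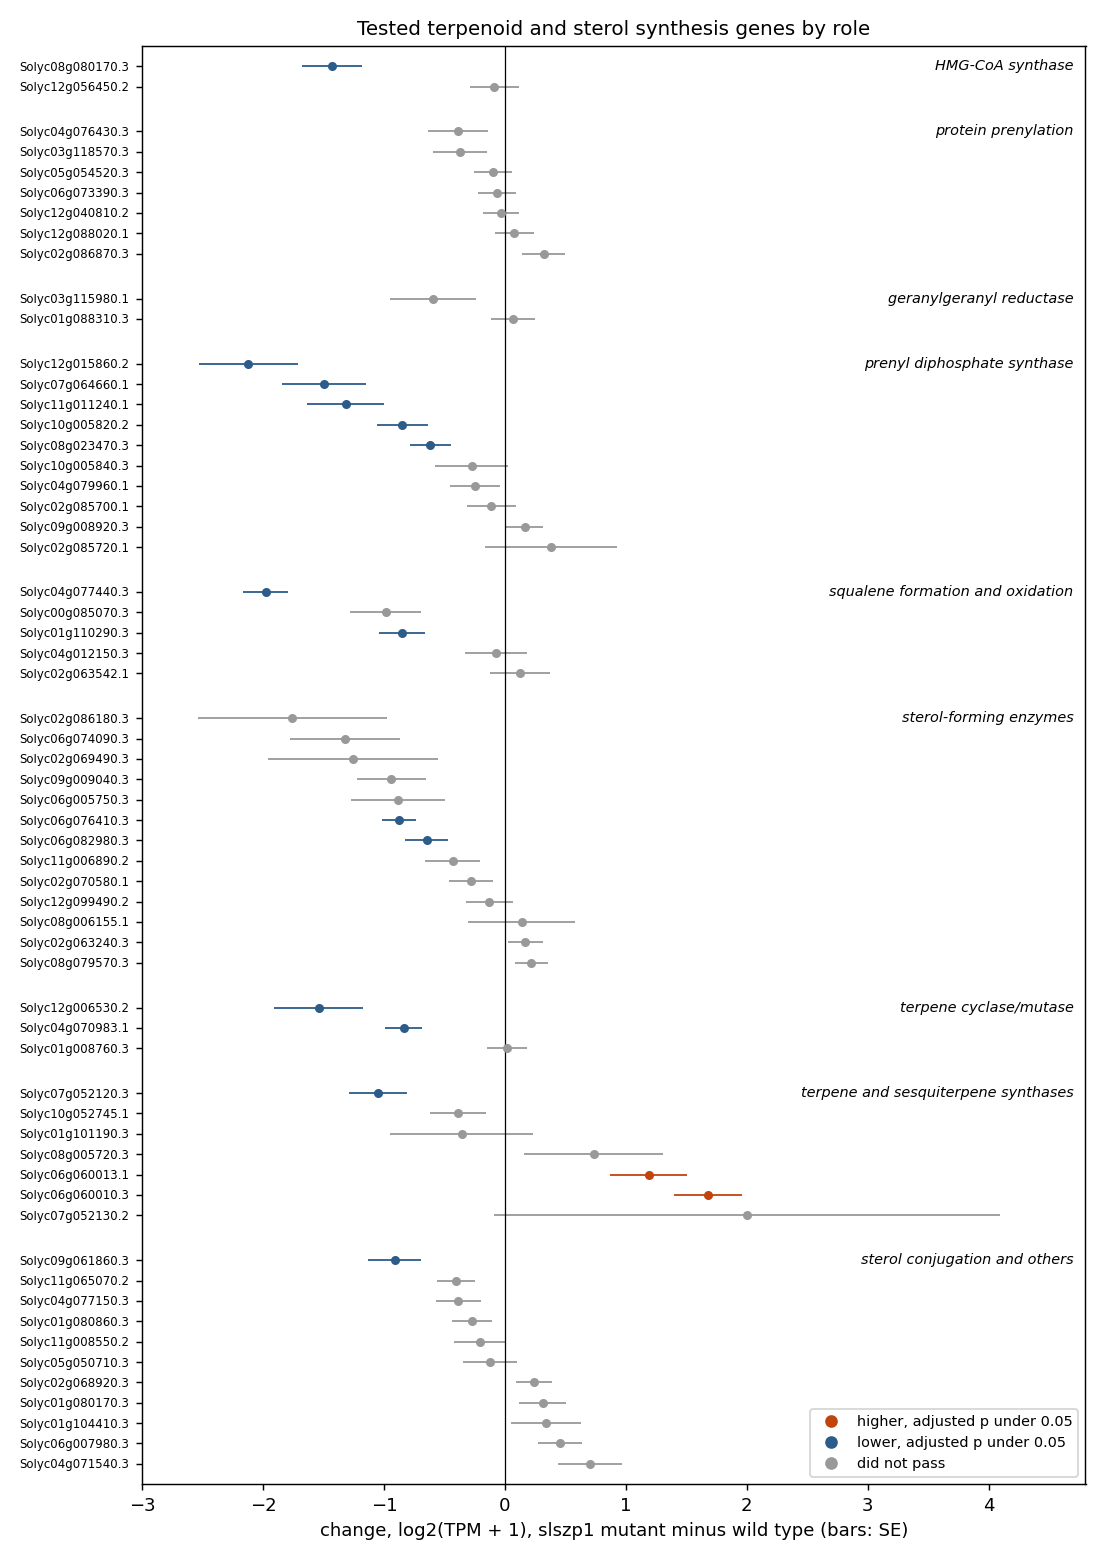
Change of each of the 60 tested genes (log2(TPM + 1), slszp1 mutant minus wild type) with its SE as a bar, grouped by role; blue marks genes that fell, orange genes that rose and grey genes that did not pass. Blue points stand in 7 of the 9 groups, 5 of the 14 among prenyl diphosphate synthases, and the 2 orange points are both terpene synthases.

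The mevalonate route begins with acetoacetyl-CoA, made by acetoacetyl-CoA thiolase, to which hydroxymethylglutaryl-CoA (HMG-CoA) synthase adds an acetyl unit. The selected HMG-CoA synthase gene Solyc08g080170.3 had 9.29, 7.19 and 4.64 TPM in the mutant libraries, against 20.5, 23.6 and 16.6 TPM in wild type. Every mutant value lay well below the lowest wild type value. It fell by 1.43 ± 0.25 (SE) on the log2 scale (limma adjusted p = 0.00497, n = 3 per genotype). The other tested copy, Solyc12g056450.2, had 7.70, 8.26 and 9.95 TPM in mutant roots and 8.28, 11.8 and 7.92 TPM in wild type, with overlapping genotypes (adjusted p = 0.805). The remaining selected copy was listed at 0 in every library.

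Other steps of the mevalonate route are annotated with words outside the selection. A list of 130 such genes (mevalonate, isopentenyl and acetoacetyl-CoA) also takes in isopentenyltransferases, which act on tRNA and cytokinins, and 110 of the 130 were listed at 0 throughout. Of its 14 tested genes, 3 fell and 0 rose, with a median change of -0.16. The acetoacetyl-CoA thiolase gene Solyc07g045350.3 had 64.4, 52.9 and 29.0 TPM in the mutant, against 271, 111 and 199.9 TPM in wild type. Mutant replicate 3 was lowest and wild type replicate 1 highest, with no overlap. It fell by 1.95 ± 0.40 (adjusted p = 0.0163), and the call was lost without wild type replicate 3 (0.0625). Isopentenyl diphosphate isomerase, which interconverts the 2 forms of the building block, had 3 tested genes. Of these, Solyc05g055760.3 had 31.2, 36.1 and 23.7 TPM in the mutant, against 123, 87.9 and 76.0 TPM in wild type. It fell by 1.62 ± 0.22 (adjusted p = 0.00170) in every alternative fit, while the isomerase genes Solyc04g056390.3 and Solyc04g056610.3 did not pass (adjusted p = 0.349 and 0.857). The phosphomevalonate kinase gene Solyc06g066310.3 had 9.26, 8.28 and 8.72 TPM in mutant roots and 16.9, 13.6 and 16.9 TPM in wild type. It fell by 0.78 ± 0.16 (adjusted p = 0.0124), and without wild type replicate 1 the p was 0.0569. A second phosphomevalonate kinase gene, Solyc08g076140.3, had 8.20, 7.07 and 9.33 TPM in mutant roots and 9.14, 7.54 and 9.25 TPM in wild type. It overlapped between genotypes and did not pass (limma adjusted p = 0.827). Neither a second acetoacetyl-CoA thiolase, Solyc05g017760.3, nor the mevalonate diphosphate decarboxylase Solyc11g007020.2 passed (limma adjusted p = 0.0854 and 0.244).

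The step before these kinases did not move one way. HMG-CoA reductase, the main control point of the route, is spelled in the table as 3-hydroxy-3-methylglutaryl, so its genes and a further HMG-CoA synthase gene lie outside the selection. They were gathered after their values were seen, in a list of 12 genes that also held viridiflorene synthases and sterol enzymes, with 10 tested, 1 higher and 2 lower. The reductase gene Solyc02g082260.3 had 20.5, 17.4 and 8.93 TPM in mutant roots and 33.4, 44.1 and 26.0 TPM in wild type, and fell by 1.14 ± 0.31 (adjusted p = 0.0395). The reductase gene Solyc03g032020.3 had 10.1, 7.79 and 11.6 TPM in mutant roots and 4.13, 6.70 and 4.65 TPM in wild type, and rose by 0.82 ± 0.23 (adjusted p = 0.0364). Genotypes did not overlap at either gene, in opposite directions. The first call was lost without mutant replicate 2 or 3 or wild type replicate 1 or 2 (0.0692 to 0.102), and the second without mutant replicate 1 or 3 or wild type replicate 1 or 3 (0.0985 to 0.127). The most abundant reductase, Solyc02g038740.3, had 157, 103 and 62.2 TPM in mutant roots and 183, 155 and 208 TPM in wild type, with an adjusted p of 0.105 (0.0237 without mutant replicate 1). The remaining tested reductase gene, Solyc03g032010.3, had 21.85, 13.8 and 28.9 TPM in mutant roots and 11.4, 21.1 and 18.2 TPM in wild type. Its genotypes overlapped and it did not pass (limma adjusted p = 0.524). The synthase gene Solyc08g007790.3 had 97.9, 111 and 56.1 TPM in mutant roots and 229.6, 129.6 and 174 TPM in wild type; its fall of 1.02 ± 0.30 just passed (adjusted p = 0.0486). That call was lost without mutant replicate 1 or 3 or wild type replicate 1 or 3 (0.0835 to 0.142), and under all 7 other settings tried (0.0530 to 0.0842).

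**Figure D2:**
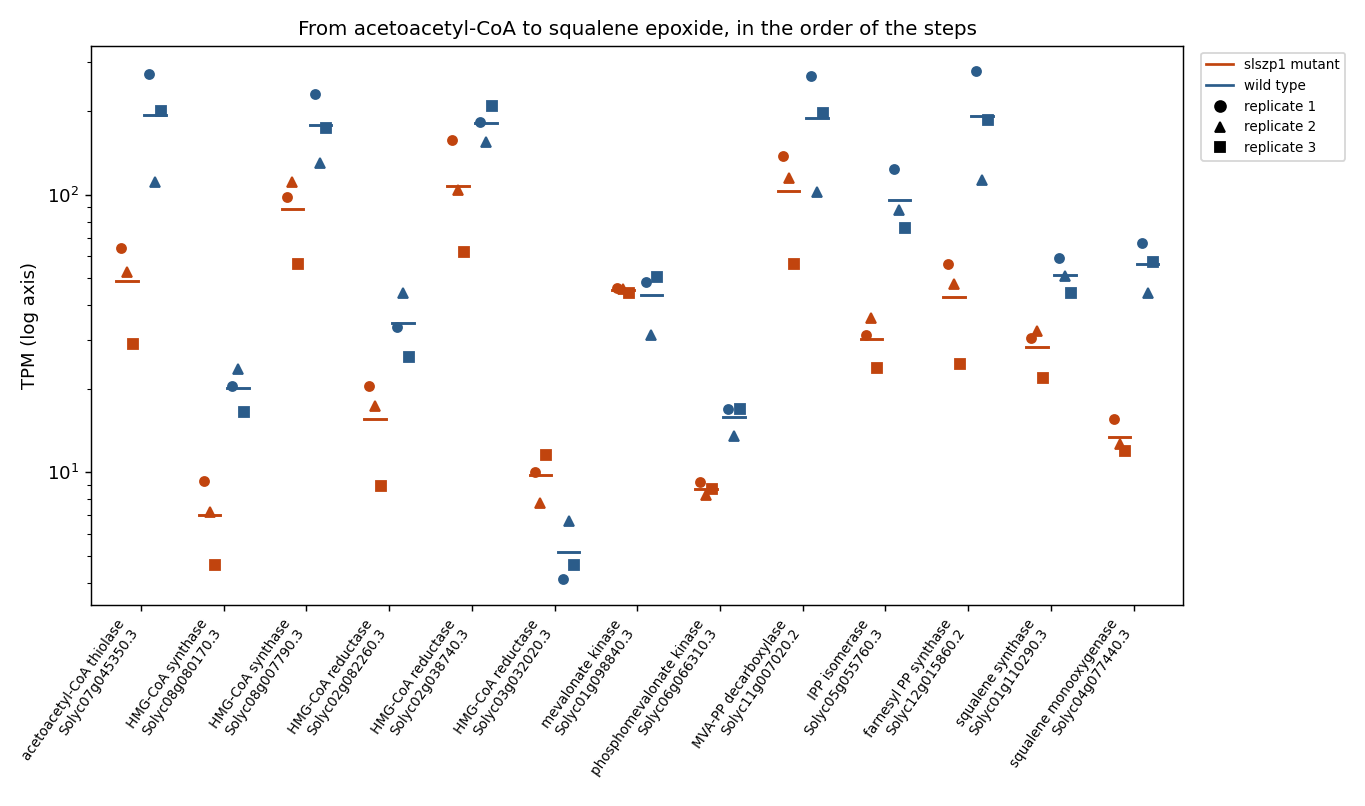
TPM on a log axis in each library for 13 genes in the order of their steps, slszp1 mutant (orange, left) and wild type (blue, right), with a bar at each mean and the marker shape giving the replicate. The mutant libraries lie below wild type at most of the drawn genes, and the reductase gene Solyc03g032020.3 lies above. Mevalonate kinase (Solyc01g098840.3), the reductase Solyc02g038740.3 and the decarboxylase Solyc11g007020.2 overlap. Some tested copies of the same steps that did not pass, such as Solyc12g056450.2, Solyc03g032010.3, Solyc04g056390.3 and Solyc02g063542.1, are not drawn.

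The prenyl diphosphate synthases held 16 genes, of which 10 were tested, 5 fell and 0 rose, with a median change of -0.45. The farnesyl pyrophosphate synthase gene Solyc12g015860.2 had the highest level of the group, at 56.5, 47.6 and 24.6 TPM in the mutant against 278, 113 and 186 TPM in wild type. The wild type libraries differed from each other by more than the mutant ones did on the TPM scale, yet the lowest of them was well above the highest mutant value. It fell by 2.12 ± 0.41 (adjusted p = 0.0130), and without wild type replicate 3 the p was 0.0524. The geranyl pyrophosphate synthase gene Solyc08g023470.3, whose product is the precursor of monoterpenes, had 23.5, 24.9 and 29.5 TPM in mutant roots and 43.7, 33.1 and 44.6 TPM in wild type. It fell by 0.62 ± 0.17 (adjusted p = 0.0358). This call was lost without mutant replicate 1 or 2 or wild type replicate 1 or 3 (0.106 to 0.124).

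The other 3 of these genes that fell were expressed at low levels, where log2(TPM + 1) understates a change. Geranylgeranyl pyrophosphate synthase 1 (Solyc11g011240.1), whose product feeds carotenoids and gibberellins, had 1.61, 1.65 and 0.22 TPM in mutant roots and 4.03, 3.51 and 4.77 TPM in wild type. It fell by 1.32 ± 0.32 (adjusted p = 0.0229), with 0.0631 and 0.0698 without wild type replicate 1 or 3. A second farnesyl diphosphate synthase, Solyc10g005820.2, had 1.05, 1.31 and 1.62 TPM in mutant roots and 2.92, 3.81 and 2.86 TPM in wild type. It fell by 0.85 ± 0.21 (adjusted p = 0.0243), and was lost without mutant replicate 1 or 2 or wild type replicate 1 or 3 (0.0537 to 0.0906). The gene model Solyc07g064660.1, a geranylgeranyl diphosphate synthase marked low quality, had 0.28, 0.37 and 0.91 TPM in mutant roots and 2.11, 6.12 and 2.39 TPM in wild type. It was the 1 tested gene at 1 TPM or more in every wild type and no mutant library, and fell by 1.50 ± 0.34 (adjusted p = 0.0182; 0.0595 and 0.0617 without mutant replicate 1 or 2). The 5 genes that did not pass included the paralogs geranylgeranyl pyrophosphate synthase 2 (Solyc04g079960.1), at 6.17 to 9.46 TPM in mutant roots and 7.59 to 9.36 TPM in wild type, and Solyc02g085700.1, at 7.67 to 12.8 TPM in mutant roots and 9.64 to 11.4 TPM in wild type. A further farnesyl diphosphate synthase, Solyc10g005840.3, also overlapped between genotypes (adjusted p = 0.581, and 0.0442 without mutant replicate 3).

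Squalene synthase joins farnesyl units, the first committed step towards sterols, and squalene monooxygenase then adds the oxygen needed for ring closure. Of 9 genes in this group, 5 were tested, 2 fell and 0 rose, with a median change of -0.85. The squalene synthase gene Solyc01g110290.3 had 30.6, 32.4 and 21.8 TPM in mutant roots and 59.2, 50.8 and 44.3 TPM in wild type. It fell by 0.85 ± 0.19 (adjusted p = 0.0158), and without wild type replicate 1 the p was 0.0606. The squalene monooxygenase gene Solyc04g077440.3 had 15.5, 12.7 and 11.95 TPM in mutant roots and 67.2, 44.2 and 57.2 TPM in wild type. Even the lowest wild type library was far above the highest mutant library. It fell by 1.98 ± 0.19, with the smallest adjusted p of the 60 genes (0.000320), and passed in every alternative fit.

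Other squalene monooxygenase copies did not pass. Solyc00g085070.3 had 8.49, 14.9 and 12.9 TPM in mutant roots and 37.5, 19.6 and 19.6 TPM in wild type, without overlap, and lay just outside the threshold (adjusted p = 0.0510, and 0.0438 without wild type replicate 2). Solyc02g063542.1 had 35.2, 40.9 and 36.7 TPM in mutant roots and 22.5, 40.0 and 44.8 TPM in wild type, which overlapped (adjusted p = 0.772). In TPM it was above Solyc04g077440.3 in every mutant library and below it in every wild type library. Whether the copies differ from each other in their change was not tested. A further monooxygenase model, Solyc02g063546.1, did not meet the minimum, with 11.1, 0.03 and 20.6 TPM in mutant roots and 0, 0.04 and 0.07 TPM in wild type. Summed over the 9 genes, the level was 104, 105 and 111 TPM in the mutant against 192, 159 and 171 TPM in wild type.

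Ring closure of oxidised squalene is done by the family described in the table as terpene cyclase/mutase, which covers enzymes making cycloartenol and other triterpenes. It had 15 genes, 8 of them listed at 0 in every library, including 3 with neighbouring identifiers on chromosome 12 (Solyc12g035440.2 to Solyc12g035460.2). Only 3 were tested, and 2 of these fell. Solyc04g070983.1 had 6.51, 7.44 and 6.67 TPM in mutant roots and 12.8, 13.5 and 12.9 TPM in wild type, the tightest groups of the 16 genes. It fell by 0.84 ± 0.16 (adjusted p = 0.00708) in every alternative fit. Solyc12g006530.2 was the most abundant of the family, at 10.9, 13.9 and 6.10 TPM in mutant roots and 36.0, 41.8 and 18.4 TPM in wild type. It fell by 1.54 ± 0.37 (adjusted p = 0.0251), a call lost without mutant replicate 1 or 3 or wild type replicate 1 or 2 (0.0520 to 0.0850). Which product either enzyme makes is not annotated in the table. The remaining tested member, Solyc01g008760.3, matched in part only, was at 5.69 to 6.31 TPM in mutant roots and 5.64 to 6.25 TPM in wild type.

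The sterol-forming group held 19 genes, 2 described as cycloartenol synthases and listed at 0 in every library and the others mostly enzymes that turn cycloartenol into sterols. Of the 19, 13 were tested, 2 fell and 0 rose, with a median change of -0.65. Sterol 4-alpha-methyl-oxidase removes methyl groups from the sterol ring. Its gene Solyc06g076410.3 had 31.2, 31.2 and 36.4 TPM in mutant roots and 63.7, 56.4 and 63.3 TPM in wild type. It fell by 0.87 ± 0.14 (adjusted p = 0.00337) in every alternative fit. The sterol-8,7-isomerase gene Solyc06g082980.3, which shifts a ring double bond, had 40.3, 36.2 and 41.4 TPM in mutant roots and 56.3, 78.8 and 53.8 TPM in wild type. It fell by 0.65 ± 0.18 (adjusted p = 0.0339), and was lost without any 1 mutant replicate or without wild type replicate 1 (0.0606 to 0.116).

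Other abundant genes of the same sequence did not pass. The 7-dehydrocholesterol reductase model Solyc12g099490.2, which matched its protein in part and was the most abundant of the group, had 89.5, 103.9 and 88.2 TPM in mutant roots and 127.8, 77.9 and 108 TPM in wild type (adjusted p = 0.699). The sterol C4-methyl oxidase gene Solyc08g079570.3 had 56.1, 62.8 and 66.4 TPM in mutant roots and 50.8, 55.04 and 52.9 TPM in wild type (adjusted p = 0.307). Sterol 22-desaturase (Solyc02g070580.1), which makes stigmasterol, had 75.8, 62.3 and 71.4 TPM in mutant roots and 66.0, 96.4 and 96.1 TPM in wild type (adjusted p = 0.330). The genotypes overlapped at the reductase and the desaturase, and at the methyl oxidase every mutant library was above every wild type library by a small margin. The sum over the 19 genes was 373, 366 and 375 TPM in the mutant against 456, 494 and 449 TPM in wild type.

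The 5 largest fitted falls of the sterol-forming group belonged to genes at lower levels that had their highest value in wild type replicate 2. The delta-7-sterol-C5-desaturase gene Solyc02g086180.3 had 8.58, 1.17 and 3.61 TPM in mutant roots and 8.48, 40.8 and 8.35 TPM in wild type. The sterol reductase gene Solyc02g069490.3 had 1.03, 0.09 and 0.23 TPM in mutant roots and 1, 9.65 and 0.75 TPM in wild type. The delta-7 reductase gene Solyc06g074090.3 had 2.32, 0.43 and 0.68 TPM in mutant roots and 2.81, 8.25 and 2.54 TPM in wild type. In each of these, mutant replicate 1 was the highest of its genotype and close to wild type replicates 1 and 3. A low 4-alpha-methyl-oxidase copy, Solyc06g005750.3, had 1.27, 0.77 and 0.96 TPM in mutant roots and 2, 6.01 and 1.36 TPM in wild type, and the untested C4-methyl oxidase copy Solyc01g091320.3 had 1.12, 0.17 and 0.16 TPM in mutant roots and 0.60, 3.90 and 0.76 TPM in wild type. The level in wild type replicate 2 was 11.03, 4.84, 3.58 and 3.08 times the mean of the other wild type libraries at the reductase, desaturase, methyl oxidase and delta-7 reductase genes that were tested. None of these passed (adjusted p = 0.0821 to 0.272; the delta-7 reductase gene had 0.0445 without mutant replicate 1), nor did the sterol C-14 reductase gene Solyc09g009040.3, which also had its highest value in wild type replicate 2 (adjusted p = 0.0509, and 0.0394 to 0.0456 without mutant replicate 1 or wild type replicate 3). Of the 60 tested genes, 6 (10%) had at least 2 times the level of the other wild type libraries in wild type replicate 2, 4 of them sterol-forming, compared with 6.47% of all tested genes. Markers of dividing cells (histone H4 and cyclin B) moved the same way, with sums of 1415, 1068 and 1064 TPM in mutant roots and 1407, 2188 and 1311 TPM in wild type, and 3 of 14 tested fell and 0 rose; their part in the result was not tested. These genes were singled out after their values were seen.

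**Figure D3:**
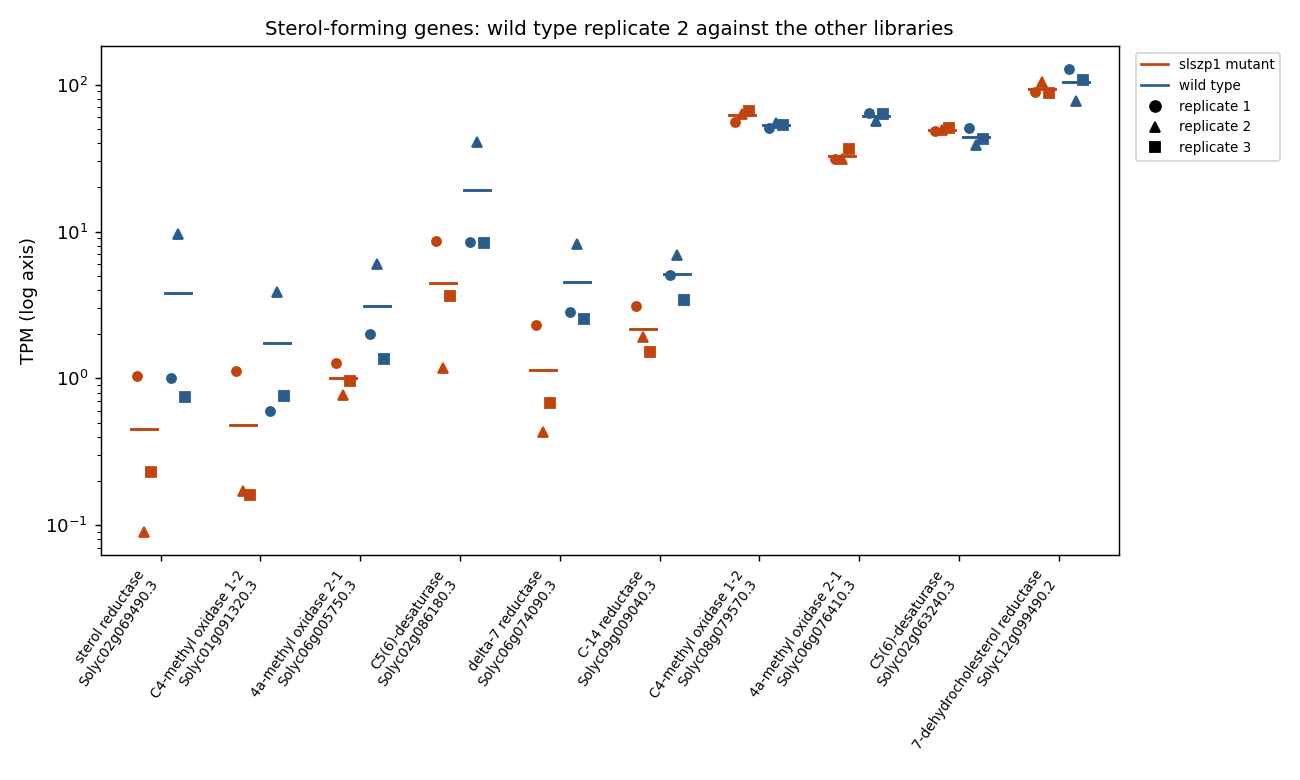
TPM on a log axis in each library for 10 sterol-forming genes, slszp1 mutant (orange, left) and wild type (blue, right), with a bar at each mean and the marker shape giving the replicate. In the 6 genes on the left the wild type triangle (replicate 2) stands above the other 5 libraries, and in the 4 genes on the right, all more abundant, it does not; the abundant genes Solyc06g082980.3 and Solyc02g070580.1, not drawn, were also highest in that library.

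Terpene and sesquiterpene synthases were the largest group, with 44 genes, but 24 were listed at 0 in every root library and only 7 were tested. Of these, 2 rose and 1 fell, with a median change of 0.73. The terpene synthase gene Solyc06g060010.3 had 8.55, 8.13 and 16.2 TPM in mutant roots and 2.45, 3.27 and 2.11 TPM in wild type. Mutant replicate 3 was the highest, and all 3 mutant libraries were above wild type. It rose by 1.68 ± 0.28 (adjusted p = 0.00418) in every alternative fit. The next model along the chromosome, Solyc06g060013.1, is described by the same protein match and had 4.83, 5.88 and 10.49 TPM in mutant roots and 3.15, 2.92 and 1.40 TPM in wild type. It rose by 1.19 ± 0.32 (adjusted p = 0.0328), and was lost without mutant replicate 2 or 3 or wild type replicate 1 or 3 (0.0507 to 0.0921). How the authors divided reads shared by such copies is not stated, so the 2 may not be separate measurements.

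Sesquiterpene synthases make terpenes from farnesyl diphosphate. The model Solyc07g052120.3, matched in part, had 16.98, 18.2 and 11.6 TPM in mutant roots and 42.6, 24.7 and 33.1 TPM in wild type. It fell by 1.05 ± 0.24 (adjusted p = 0.0175), a call lost without mutant replicate 3 or wild type replicate 1 or 3 (0.0515 to 0.0606). Its low-quality neighbour Solyc07g052130.2 was the most abundant of the group in most libraries, at 151, 153 and 28.6 TPM in mutant roots and 0, 60.3 and 177 TPM in wild type. Those values did not follow genotype (adjusted p = 0.574), and the exact 0 in 1 library may be a failed estimate. The humulene and caryophyllene synthase gene Solyc01g101190.3, a sesquiterpene enzyme, had 67.4, 48.5 and 28.2 TPM in mutant roots and 91.3, 24.1 and 88.7 TPM in wild type (adjusted p = 0.728). Here wild type replicate 2 was the lowest of all libraries. The neighbouring viridiflorene synthases, outside the selection, were likewise lowest in replicate 2 among wild type libraries: Solyc01g101210.4 was at 6.27, 6.07 and 4.71 TPM in mutant roots and 21.6, 4.33 and 21.7 TPM in wild type (adjusted p = 0.244, and 0.000849 without wild type replicate 2). Terpene synthase 18 (Solyc08g005720.3) overlapped between genotypes, at 3.20 to 12.6 TPM in mutant roots and 1.72 to 8.25 TPM in wild type.

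**Figure D4:**
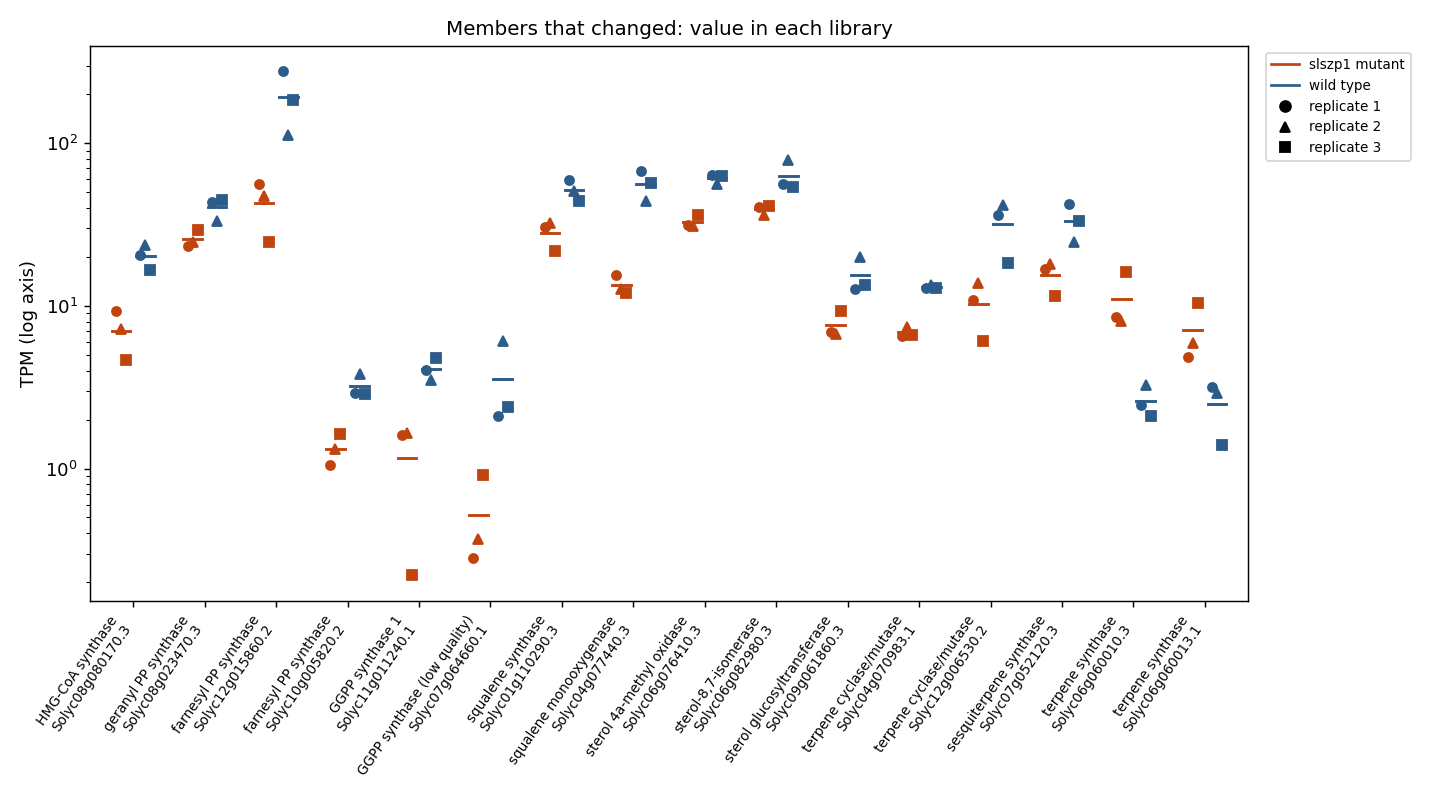
TPM on a log axis in each library for the 16 genes that changed, slszp1 mutant (orange, left) and wild type (blue, right), with a bar at each mean and the marker shape giving the replicate. The 16 were drawn because they passed, and the genotypes do not overlap at any of them. The 2 terpene synthases at the right are the only ones with the mutant above.

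The selection also took in genes around this route rather than on it. Sterol conjugation and others held 17 genes, 11 tested, with 1 lower and 0 higher. Sterol glucosyltransferases attach glucose to membrane sterols. Solyc09g061860.3 had 6.90, 6.68 and 9.25 TPM in mutant roots and 12.6, 20.1 and 13.4 TPM in wild type. It fell by 0.91 ± 0.22 (adjusted p = 0.0221), with 0.0730 and 0.0761 without mutant replicate 1 or 2. A copy with the same description, Solyc06g007980.3, had 42.8, 45.1 and 66.8 TPM in mutant roots and 35.9, 37.5 and 36.3 TPM in wild type, all mutant libraries above, and did not pass (adjusted p = 0.126). The sterol glucosyltransferase Solyc04g071540.3 had 28.1, 26.6 and 36.0 TPM in mutant roots and 17.8, 12.2 and 26.7 TPM in wild type, which overlapped (adjusted p = 0.106, and 0.0259 without wild type replicate 3). The most abundant gene of the group, the lecithine cholesterol acyltransferase Solyc02g068920.3, which belongs to a family that esterifies sterols and lipids, had 177, 178 and 207 TPM in mutant roots and 145, 152 and 179 TPM in wild type (adjusted p = 0.321). Genes of HMG-CoA lyase, which breaks HMG-CoA down in leucine catabolism, were matched by name, and neither tested copy passed (adjusted p = 0.313 and 0.112 at Solyc01g080170.3 and Solyc11g065070.2).

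Protein prenylation attaches farnesyl or geranylgeranyl groups to proteins and so spends the same diphosphates. Of 8 such genes 7 were tested and 0 passed by limma, also 0 at an unadjusted p under 0.05, with changes from -0.39 to 0.32 and a median of -0.06. The most abundant, geranylgeranyl transferase type-2 subunit beta (Solyc12g040810.2), had 33.1, 37.7 and 38.8 TPM in mutant roots and 41.5, 32.9 and 37.8 TPM in wild type. The summed level of the group was 113, 116 and 129 TPM in mutant roots and 129, 111 and 132 TPM in wild type. Geranylgeranyl reductase, which supplies the tails of chlorophyll and tocopherol, had 2 tested genes, 0 of which passed, also at an unadjusted p under 0.05. The more even of them, Solyc01g088310.3, was at 3.18 to 3.26 TPM in mutant roots and 2.83 to 3.20 TPM in wild type.

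The plastid MEP route, which also supplies isopentenyl diphosphate, had 13 tested genes of 22, with 1 higher, 1 lower and a median change of -0.07. Deoxyxylulose phosphate synthase opens the route. Among its tested genes, Solyc01g067890.3 had 24.5, 23.3 and 39.7 TPM in mutant roots and 8.86, 13.2 and 8.73 TPM in wild type. It rose by 1.40 ± 0.25 (adjusted p = 0.00543) in every alternative fit. The synthase genes Solyc06g071380.3, Solyc08g066950.3 and Solyc11g010850.2 did not pass (limma adjusted p = 0.668, 0.928 and 0.857). The partly matched reductoisomerase model Solyc05g052660.1 was listed at 0 in the mutant libraries and at 11.02, 4.18 and 3.34 TPM in wild type (adjusted p = 0.00171), whereas the full reductoisomerase gene Solyc03g114340.3 had 23.8, 25.0 and 31.7 TPM in mutant roots and 34.8, 35.3 and 38.8 TPM in wild type (adjusted p = 0.0913, and 0.0463 without mutant replicate 3).

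Carotenoid and strigolactone genes, which start from geranylgeranyl diphosphate, had 21 tested of 49, with 1 higher, 4 lower and a median change of -0.18. Beta-carotene hydroxylase-1 (Solyc06g036260.3), which makes xanthophylls, had 5.65, 7.34 and 3.62 TPM in mutant roots and 35.2, 23.4 and 31.4 TPM in wild type. It fell by 2.27 ± 0.25 (adjusted p = 0.000647) in every alternative fit. The beta-carotene isomerase D27 gene Solyc09g065750.3, whose Arabidopsis and rice counterparts begin strigolactone synthesis, had 0.51, 0.41 and 0.82 TPM in mutant roots and 2.54, 2.10 and 3.68 TPM in wild type. It fell by 1.24 ± 0.24 (adjusted p = 0.00801), also in every alternative fit. The zeta-carotene isomerase gene Solyc12g098710.2 had 44.2, 38.5 and 45.5 TPM in mutant roots and 115, 60.5 and 130.3 TPM in wild type. Its fall of 1.17 ± 0.27 (adjusted p = 0.0207) was lost without any 1 library other than wild type replicate 2 (0.0553 to 0.0708). The 1 tested gibberellin precursor gene, ent-kaurene synthase Solyc07g066675.1, had 4.16, 5.04 and 8.68 TPM in mutant roots and 5.27, 5.50 and 4.47 TPM in wild type (adjusted p = 0.742).

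Jasmonate signalling is known to induce steroidal alkaloid genes in tomato. Of its 30 genes 15 were tested, 2 rose and 3 fell, with a median change of 0.03. Jasmonate ZIM-domain proteins are repressors of the jasmonate response. The gene for protein 7b, Solyc03g118540.3, had 13.6, 11.02 and 12.4 TPM in mutant roots and 27.7, 33.9 and 28.6 TPM in wild type, and fell by 1.22 ± 0.16 (adjusted p = 0.00132) in every alternative fit. A partly matched model of protein 12a, Solyc08g036625.1, had 2.47, 3.02 and 2.08 TPM in mutant roots and 0.27, 0.22 and 1.12 TPM in wild type. It rose by 1.24 ± 0.27 (adjusted p = 0.0148; 0.0549 and 0.0559 without mutant replicate 2 or wild type replicate 1). The gene described as jasmonic acid 2, Solyc12g013620.2, had 126, 166 and 96.9 TPM in mutant roots and 218, 221 and 238 TPM in wild type. Its fall of 0.83 ± 0.20 (adjusted p = 0.0230) was lost without mutant replicate 1 or 3 or wild type replicate 1 or 3 (0.0586 to 0.0696). Among the repressor genes, the 12a model was thus higher and the 7b gene lower in the mutant. Another 12a model, Solyc08g036505.1, was also higher (limma adjusted p = 0.0256). Several more abundant repressor genes did not pass: Solyc01g005440.3, Solyc07g042170.3, Solyc12g009220.2 and Solyc06g068930.2 (limma adjusted p = 0.225, 0.907, 0.346 and 0.0506).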

How the data were processed

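Expression in each root library was read from a single table that the authors deposited, and every one of its 6 value columns was used. No unit is stated in it. Column totals ran from 940694.5 to 974316.4, and the deposited numbers were on that ground read as TPM, an inference. The submitters' processing notes list TopHat2, HISAT2, StringTie and Cufflinks with neither version nor role, and the sources used here do not give the build. No interval that needs sequencing depth is given, since TPM does not hold it.

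Groups came from the labels. A gene was tested if 3 of 6 libraries held at least 1 TPM, on log2(TPM + 1), by limma 3.58.1 (trend and robust options, statmod 1.5.0, R 4.3.3), with Benjamini-Hochberg adjustment over all 17702 tested genes and a threshold of 0.05. The fit was tested on simulated data. Gene names come from the table's descriptions; 0 identifiers matched the RefSeq table at hand, and no sequence was used here. The genes, roles and lists were chosen with earlier results of these data known. The cyclase group was set apart from the terpene synthases after the descriptions were seen. Genes named are the changed ones, the most abundant of each role and up to 3 changed per list; others named (the near misses, copies and the HMG-CoA reductase list) were chosen after their values were seen. The replicate number did not enter the fit. Alternatives were a pseudocount of 0.1, no filter, a mean filter, quantile normalization, median centring, the block, plain limma, a change of at least 1, each library left out, and leaving out low-quality or partly matched models.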

Additional observations from a re-analysis of the deposited data

How the results depend on the processing

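TPM, with no counts behind it, limits what can be said of genes near 1 TPM. Requiring a change of at least 1 on the log2 scale left 2018 of 17702 genes changed (911 higher, 1107 lower) and 9 of the 60 terpenoid and sterol genes (7 lower). With no filter on low values, 1 of them was higher. Leaving out a single library gave 2125 to 3806 changed genes (994 to 1764 higher, 1131 to 2042 lower), and 8 to 16 changed terpenoid and sterol genes (1 to 2 higher, 7 to 14 lower). Not every named gene that did not pass was followed over these fits, and Solyc08g076140.3, Solyc08g066950.3 and Solyc11g010850.2 are among those left out. At 10 of the genes followed, the direction turned without a single library. The changes over these fits were -0.12 to 0.046 (0.037 without mutant replicate 1) at Solyc12g040810.2, -0.33 to 0.029 at Solyc12g099490.2, -0.24 to 3.50 at Solyc07g052130.2, -0.12 to 0.33 at Solyc07g066675.1, -0.015 to 0.049 at Solyc01g008760.3, -0.13 to 0.21 at Solyc01g098840.3, -0.17 to 0.31 at Solyc02g063542.1, -0.29 to 0.051 at Solyc02g085700.1, -0.074 to 0.17 (-0.02 without mutant replicate 1) at Solyc04g056610.3 and -0.19 to 0.076 at Solyc12g056450.2. Without low-quality or partly matched models, 14 genes changed (2 higher, 12 lower). Settings other than a left-out library also ended calls: no filter, at Solyc06g082980.3, Solyc08g023470.3, Solyc06g060013.1, Solyc02g082260.3 and Solyc03g032020.3; plain limma, at Solyc06g082980.3 and Solyc08g023470.3; a pseudocount of 0.1, at Solyc11g011240.1; median centring, at Solyc02g082260.3 and Solyc12g013620.2; quantile normalization, at Solyc02g082260.3; all of these, the mean filter and the block, at Solyc08g007790.3. Quantile normalization and median centring brought Solyc03g114340.3 past the threshold, and plain limma Solyc09g009040.3. With the replicate block, 12 of the 60 and 2775 of all genes changed; it ended the calls of Solyc11g011240.1, Solyc09g061860.3, Solyc10g005820.2, Solyc06g082980.3, Solyc06g060013.1, Solyc08g036625.1 and Solyc03g032020.3 (adjusted p = 0.0533 to 0.0986) and brought Solyc04g071540.3 past the threshold (0.0471). Same-numbered libraries correlated in their deviations at r = -0.05, -0.07 and 0.11, and not every library correlated best with its own number. These values gave no ground for pairing samples by number. With 3 libraries per genotype, such correlations cannot settle whether the numbers pair samples. The causes were not tested.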

Other observations

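Several of the genes below the minimum were listed at a high value in a single library and at 0 elsewhere. The prenyl diphosphate synthase model Solyc10g019050.2 was listed at 166.8 TPM in mutant replicate 3 and at 0 in the other 5 libraries, and made up most of that library's 287 TPM summed over the 16 prenyl diphosphate synthases. Solyc12g044680.1, of the same group, was listed at 13.2 TPM in wild type replicate 1 alone, and Solyc06g011530.3, an HMG-CoA lyase model, at 2.47 TPM in wild type replicate 3 alone. The terpene synthase model Solyc09g092470.2 was listed at 0.22, 0.47 and 0.18 TPM in the mutant libraries and at 0 in wild type. The gene described as cycloartenol synthase 1, Solyc04g070980.3, was listed at 0 in every library, while its neighbour Solyc04g070983.1 was measured in all 6.

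By their identifiers, 53 of the genes lay in 18 clusters of neighbouring models (identifier numbers within 100 of the next), and 14 of those 53 were tested. Chromosome 6 held 13 of the genes, 8 tested and 4 changed, 2 of them the neighbouring models Solyc06g060010.3 and Solyc06g060013.1. Chromosome 2 held 19, 9 tested and 0 changed by limma (also 0 at an unadjusted p under 0.05). These 2 chromosomes were picked from all of them. The share of all tested genes that changed on each chromosome was not counted, so no difference between chromosomes is read from these counts.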
